A study of Mus musculus with 12 samples.

Results

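The genes described here are 7 mouse immunity-related GTPases (IRGs), namely Irgm1, Irgm2, Igtp, Iigp1, Ifi47, Tgtp1 and Tgtp2. They were chosen by symbol, and all 7 were found among the 38215 genes of the deposited count table. The 12 libraries came from RAW264.7, an established mouse macrophage line of BALB/c origin, with 3 biological replicates in each of 4 groups. Cells received nontargeting control siRNA or siRNA against SF3A1, a subunit of the SF3a splicing complex, and 24 h later either no LPS or 20 ng/ml LPS for 4 h. LPS is the bacterial lipopolysaccharide sensed by TLR4. Every culture was transfected by nucleofection, so the control siRNA groups are transfected cells and not untouched ones.

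IRGs are interferon-inducible GTPases that act on the vacuoles in which intracellular pathogens such as Toxoplasma and Chlamydia live. Members are sorted by a motif of the GTPase domain. The GMS members Irgm1, Irgm2 and Igtp (also called Irgm3) sit mostly on host membranes and keep the others inactive there. The GKS members Iigp1 (Irga6), Ifi47 (Irgd) and the pair Tgtp1 and Tgtp2 (Irgb6) are the effectors that load onto the vacuole. In macrophages, LPS acts on such genes largely through interferon-β made by the cells and the STAT and IRF factors downstream.

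The libraries held 12746019 to 41091887 gene counts, with replicate 1 the deepest in every group. Sf3a1, the siRNA target, fell to 15.1% of its control level without LPS and to 20.35% with LPS (edgeR log2 fold changes of -2.73 and -2.30, adjusted p = 1.14e-05 and 1.47e-05). The 10 macrophage markers summed to between 9902 and 16520 CPM (counts scaled by library size to 1e6) in every library. Lyz2 was the largest part of this sum, with group means from 5430 to 7527 CPM. At an edgeR adjusted p of 0.1 or less, LPS with control siRNA raised 7 of the 10 and lowered 1. Of all genes tested, 13.8% were raised and 18.3% lowered. SF3A1 siRNA with LPS raised 3 of the 10 and lowered 3, beside 18.4% and 20.4% of all genes tested. Among them Fcgr1 fell (log2 -3.20) and Mertk rose (log2 2.01) with SF3A1 siRNA and LPS (edgeR adjusted p = 6.14e-06 and 0.00905), and their part in the results was not tested. Markers of B cells, fibroblasts and epithelium summed to at most 0.544 CPM, and those of T cells to at most 0.193 CPM. Of the 3 NK cell markers, Ncr1 and Klrb1c stood at or near 0, while Klrk1 rose with LPS and brought the list to between 0.658 and 1.795 CPM with control siRNA and LPS.

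In mm10, 6 of the 7 members lie on chromosome 11, and Iigp1 lies on chromosome 18 (forward strand, 60376027 to 60392634). Irgm1 occupies chr11:48861968-48871683 on the reverse strand. Tgtp1 (chr11:48985327-48994172, reverse), Tgtp2 (chr11:49057194-49064206, reverse) and Ifi47 (chr11:49076587-49096974, forward) follow it on the chromosome. Igtp (chr11:58199556-58207591) and Irgm2 (chr11:58199618-58222782) lie farther along, both on the forward strand, and share 162 exonic bases. Ifi47 shares 111 exonic bases with Olfr56, and Tgtp1 shares 223 with Gm12185. A read that lies in shared bases alone cannot be given to 1 gene by the counting.

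Only uniquely mapping reads were counted, and this weighs on Tgtp1 and Tgtp2. Of the 60-nt windows of the longest Tgtp1 transcript, 89.9% also occur in a transcript of another gene, and of those of Tgtp2 88.4%. At the shortest read length kept, 30 nt, the shares are 94.35% and 94.9%. Their counts therefore come from few places, and how much of their RNA was missed was not tested. For Irgm1, Iigp1, Ifi47, Irgm2 and Igtp, 0%, 1.24%, 3.15%, 5.996% and 10.6% of 60-nt windows are shared, the last pair mostly with each other.

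The stretches just upstream of the RefSeq starts are shown because they carry the letters that interferon-activated factors are known to bind. Of the 7 members, 6 have a RefSeq promoter (GRCm38.p6, from 250 bases before the start to 50 after). The motifs searched on both strands were the ISRE core (GAAA, any 2 bases, GAAA), bound by ISGF3 and IRF factors, and the GAS core TTCNNNGAA, known from interferon-γ responses, which reads the same on both strands. In the windows below the ISRE and GAS cores are in capitals, each window running 5′ to 3′ on the strand of its gene. The RefSeq starts differ from the GENCODE gene ends given above, so that the windows of Irgm2, Tgtp1 and Irgm1 lie inside the GENCODE genes, and that of Irgm1 in a GENCODE exon.
Irgm2, chr11:58214882-58214942, forward: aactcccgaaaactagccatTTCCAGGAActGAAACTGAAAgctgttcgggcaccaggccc
Igtp, chr11:58199491-58199551, forward: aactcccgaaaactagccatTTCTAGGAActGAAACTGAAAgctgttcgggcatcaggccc
Tgtp1, chr11:48992294-48992354, reverse: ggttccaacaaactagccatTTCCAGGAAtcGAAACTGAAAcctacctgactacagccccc
Tgtp2, chr11:49064253-49064313, reverse: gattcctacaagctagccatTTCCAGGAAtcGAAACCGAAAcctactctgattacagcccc
Irgm1, chr11:48871428-48871457, reverse: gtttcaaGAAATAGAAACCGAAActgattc

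Irgm2, Igtp, Tgtp1 and Tgtp2 each held a GAS core, then 2 bases, then an ISRE core in the same orientation. That arrangement was found in 5 of 32851 promoters (0.0152%), the fifth being that of the IRG gene Gm12185. The spacing counted is the one these members show, and some of their promoters are near copies. The count is thus a description and carries no test. Taken alone, 3.44% of promoters held an ISRE core, 8.30% a GAS core and 5.555% a kappaB core. No kappaB core was found in the promoters of the members. Over the 61 bases shown, Irgm2 and Igtp were identical at 59 positions and Tgtp1 and Tgtp2 at 47. Irgm1 held 2 ISRE cores that overlap by 4 bases, at positions -30 to -21 and -24 to -15 from its RefSeq start. In the Ifi47 window neither an ISRE core nor a GAS core was found, which says only that these letters are not in that window.

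Irgm1, Irgm2, Igtp and Ifi47 were above the low-count limit of 0.477 CPM in all 12 libraries. Iigp1, Tgtp1 and Tgtp2 were above it in all 3 libraries of control siRNA with LPS and in no library without LPS. With SF3A1 siRNA and LPS, 2 libraries were above it for Iigp1 and 0 for Tgtp1 and Tgtp2. Those 3 genes entered the test through the group in which they were high, so that a difference was built into their selection, and counts of members called are given below for completeness and not as support.

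With control siRNA, LPS raised all of the GMS members. Irgm1 stood at 22.15, 38.1 and 34.9 CPM in the 3 libraries without LPS and at 727, 924 and 1106 CPM with it. Irgm2 went from 6.03, 10.5 and 8.30 CPM to 217.5, 273 and 303 CPM. Igtp went from 5.53, 8.80 and 6.26 CPM to 322, 310 and 361 CPM. In each of these genes every library with LPS was above every library without it, as was so for 17.2% of all genes tested, and the means differed 29.0-fold, 32.0-fold and 48.2-fold. The log2 fold changes were 4.86 for Irgm1 (SE 0.232, edgeR adjusted p = 2.64e-08), 5.005 for Irgm2 (SE 0.259, adjusted p = 3.82e-08) and 5.60 for Igtp (SE 0.204, adjusted p = 6.31e-09).

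The GKS members rose too, from lower levels. Ifi47 stood at 3.83, 4.60 and 4.30 CPM without LPS and at 255, 240 and 345 CPM with it, a 65.9-fold difference of the means (log2 6.05, SE 0.294, edgeR adjusted p = 2.82e-08). Iigp1 had 11, 2 and 2 counts without LPS and 318, 193 and 381 with it (log2 6.51, SE 0.678, edgeR adjusted p = 1.37e-05). Without replicate 1 of the group without LPS, which held 11 of its 15 counts, the log2 fold change was 7.36 (edgeR adjusted p = 7.02e-05). Tgtp2 had 0, 1 and 0 counts against 171, 70 and 98, and Tgtp1 had 2, 0 and 0 against 34, 25 and 56. With so few counts at rest, the ratio of summed counts per depth was 443 for Tgtp2 (95% counting interval 79.05 to 17570) and 75.2 for Tgtp1 (20.35 to 628.5). The intervals cover counting error only. In edgeR both were called (adjusted p = 4.64e-06 for Tgtp2 and 0.000612 for Tgtp1), so that 7 of 7 members were called higher, beside 13.8% of all genes tested, and 0 lower, beside 18.3%.

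**Figure D1:**
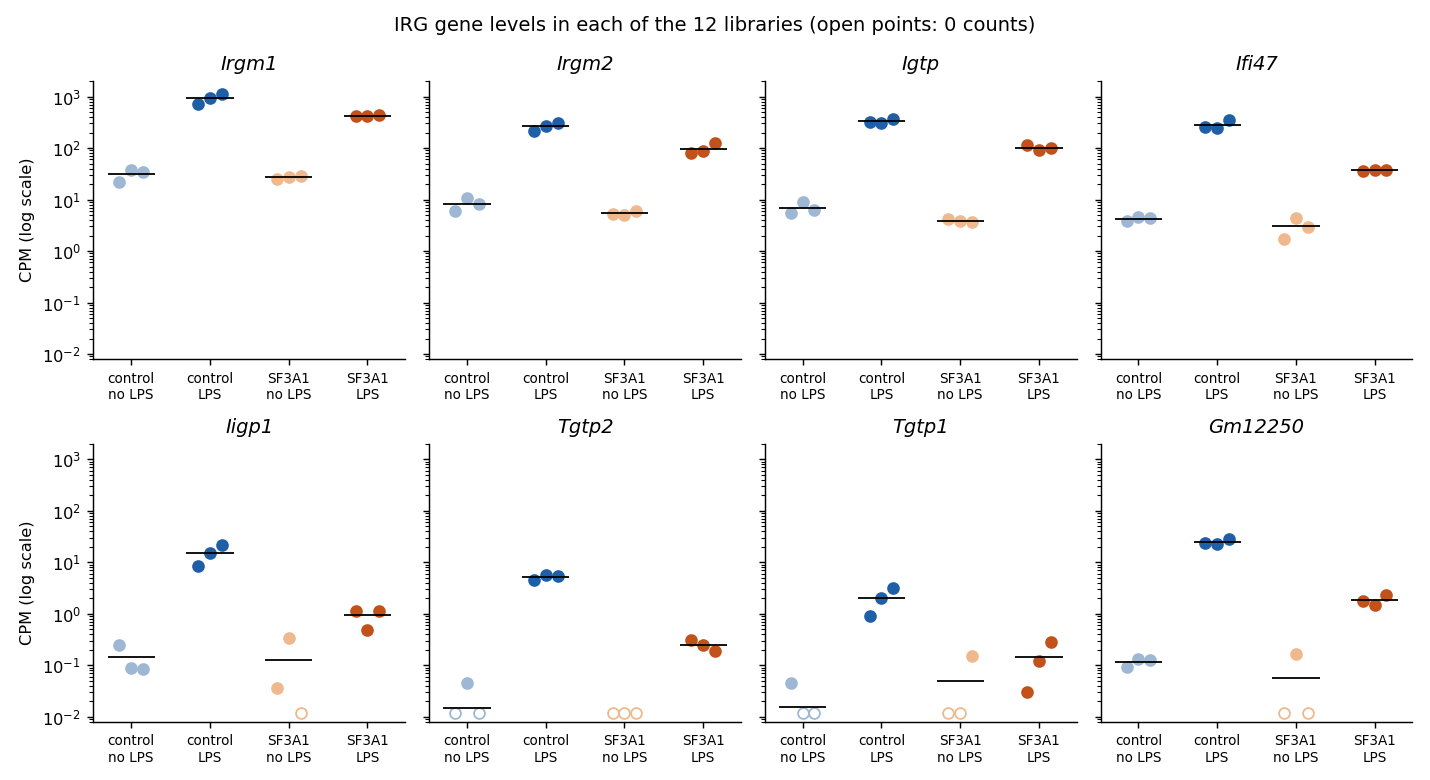
Level of each of the 7 IRG genes and of Gm12250 in the 12 libraries, as CPM on a log axis, with a point per library, a line at the mean of each group, and open points near the foot of the axis for libraries with 0 counts. In every panel the libraries with control siRNA and LPS lie above all others, and those with SF3A1 siRNA and LPS lie below them.

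With SF3A1 siRNA, LPS still raised the GMS members. Irgm1 went from 24.9, 27.4 and 28.7 CPM to 418, 423 and 430 CPM, and Irgm2 from 5.29, 4.96 and 6.10 CPM to 78.6, 87.2 and 123.5 CPM. Igtp went from 4.16, 3.85 and 3.65 CPM to 113, 89.7 and 100.2 CPM. Again no library without LPS reached the lowest with it, which held for 13.3% of all genes tested. The means differed 15.7-fold, 17.7-fold and 26.0-fold, with log2 fold changes of 3.97 for Irgm1 (SE 0.224, edgeR adjusted p = 3.85e-07), 4.15 for Irgm2 (SE 0.254, adjusted p = 7.18e-07) and 4.69 for Igtp (SE 0.200, adjusted p = 5.05e-08).

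Among the effectors, Ifi47 went from 1.75, 4.40 and 2.90 CPM to 36.0, 37.5 and 37.8 CPM under SF3A1 siRNA, a 12.3-fold difference (log2 3.64, SE 0.275, edgeR adjusted p = 3.79e-06). Iigp1 had 1, 6 and 0 counts without LPS and 38, 8 and 24 with it (log2 2.92, SE 0.789, edgeR adjusted p = 0.0378), and the call was lost without replicate 1 or without replicate 3 of SF3A1 siRNA without LPS (log2 2.32 and 2.51, edgeR adjusted p = 0.171 and 0.112). Without replicate 2 of that group, which held 6 of its 7 counts, the log2 fold change was 5.03 (edgeR adjusted p = 0.0113). Tgtp2 had 0 counts in every library without LPS and 10, 4 and 4 with it, which was at least 5.02-fold higher if the group at 0 is set to a limit of 3 summed counts (edgeR adjusted p = 0.00912). Tgtp1 had 0, 0 and 2 counts against 1, 2 and 6, a ratio of 3.76 with a counting interval of 0.779 to 35.8, and was not called (edgeR adjusted p = 0.560). Thus 6 of 7 members were called higher, beside 6.6% of all genes tested, and 0 lower, beside 4.06%. With the counts of Tgtp1 and Tgtp2 summed, the pair was called higher (log2 3.28, SE 0.890, edgeR adjusted p = 0.0322).

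Without LPS, the family summed to 51.3 ± 12.4 CPM with control siRNA and 39.55 ± 2.94 CPM with SF3A1 siRNA, and the groups overlapped. Igtp had the smallest adjusted p of the members. Its 3 libraries with SF3A1 siRNA, at 3.65 to 4.16 CPM, lay below all 3 with control siRNA, at 5.53 to 8.80 CPM, a separation found for 25.4% of all genes tested (log2 -0.81, SE 0.185, edgeR adjusted p = 0.00629). Irgm2 fell from 8.28 ± 2.235 to 5.45 ± 0.587 CPM (mean ± SD, n = 3), and its groups overlapped (log2 -0.60, SE 0.236, edgeR adjusted p = 0.0805). This call for Irgm2 was lost with DESeq2's scaling, in DESeq2 and limma-voom, in a fit of these 2 groups alone, and without any 1 of 5 of the 6 libraries compared (log2 -0.31 without replicate 2 of control siRNA, edgeR adjusted p = 0.415). Irgm1 averaged 31.7 ± 8.44 and 27.03 ± 1.92 CPM (log2 -0.23, edgeR adjusted p = 0.451), Ifi47 4.24 ± 0.390 and 3.02 ± 1.33 CPM (log2 -0.51, edgeR adjusted p = 0.192), and neither was called. When same-numbered replicates were blocked, Ifi47 was called as well (log2 -0.54, edgeR adjusted p = 0.0943), and so it was without replicate 2 of SF3A1 siRNA (log2 -0.89, edgeR adjusted p = 0.0267). Iigp1 had 15 counts in all with control siRNA and 7 with SF3A1 siRNA (edgeR adjusted p = 0.819), and Tgtp1 and Tgtp2 were at or under 3 counts in both groups, so that no fold is given. In all, 2 of 7 members were called lower, beside 20.1% of all genes tested, and 0 higher, beside 13.7%.

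With LPS, SF3A1 siRNA lowered the GMS members to between 30.5% and 46.1% of their control level. Irgm1 averaged 919 ± 189 CPM with control siRNA and 424 ± 6.06 CPM with SF3A1 siRNA (SD, n = 3, log2 -1.12, SE 0.199, edgeR adjusted p = 0.00118). Irgm2 averaged 264.5 ± 43.4 and 96.4 ± 23.9 CPM (log2 -1.46, SE 0.221, edgeR adjusted p = 0.000428). Igtp averaged 331 ± 26.7 and 101 ± 11.8 CPM (log2 -1.71, SE 0.170, edgeR adjusted p = 3.15e-05). For all 3 genes the groups were fully separate, as for 21.1% of all genes tested.

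The effector genes were lowered to between 4.74% and 13.3% of control. Of these, Iigp1, Tgtp1 and Tgtp2 had entered the test through control siRNA with LPS, so that a difference was built into their selection. Tgtp1 and Tgtp2 held 9 and 18 summed counts with SF3A1 siRNA and LPS. Only Ifi47 was above the low-count limit in every library. Ifi47 averaged 280 ± 56.7 CPM with control siRNA and 37.1 ± 0.982 CPM with SF3A1 siRNA (log2 -2.91, SE 0.250, edgeR adjusted p = 1.32e-05). Iigp1 averaged 15.0 ± 6.51 and 0.930 ± 0.386 CPM (log2 -3.97, SE 0.566, edgeR adjusted p = 0.000272). Tgtp2 averaged 5.19 ± 0.596 and 0.246 ± 0.0552 CPM (log2 -4.34, SE 0.461, edgeR adjusted p = 9.89e-05), and Tgtp1 2.01 ± 1.12 and 0.147 ± 0.131 CPM (log2 -3.81, SE 0.856, edgeR adjusted p = 0.00451). For Tgtp1 the log2 fold change was -3.20 without replicate 1 and -4.84 without replicate 3 of SF3A1 siRNA with LPS (edgeR adjusted p = 0.0206 and 0.00823). Here too no library with SF3A1 siRNA reached the lowest control library. In all, 7 of 7 members were called lower, beside 20.4% of all genes tested (18.4% were higher), and all 7 were called in each alternative that tested them singly. In bulk RNA, fewer responding cells and less RNA per responding cell cannot be told apart.

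**Figure D2:**
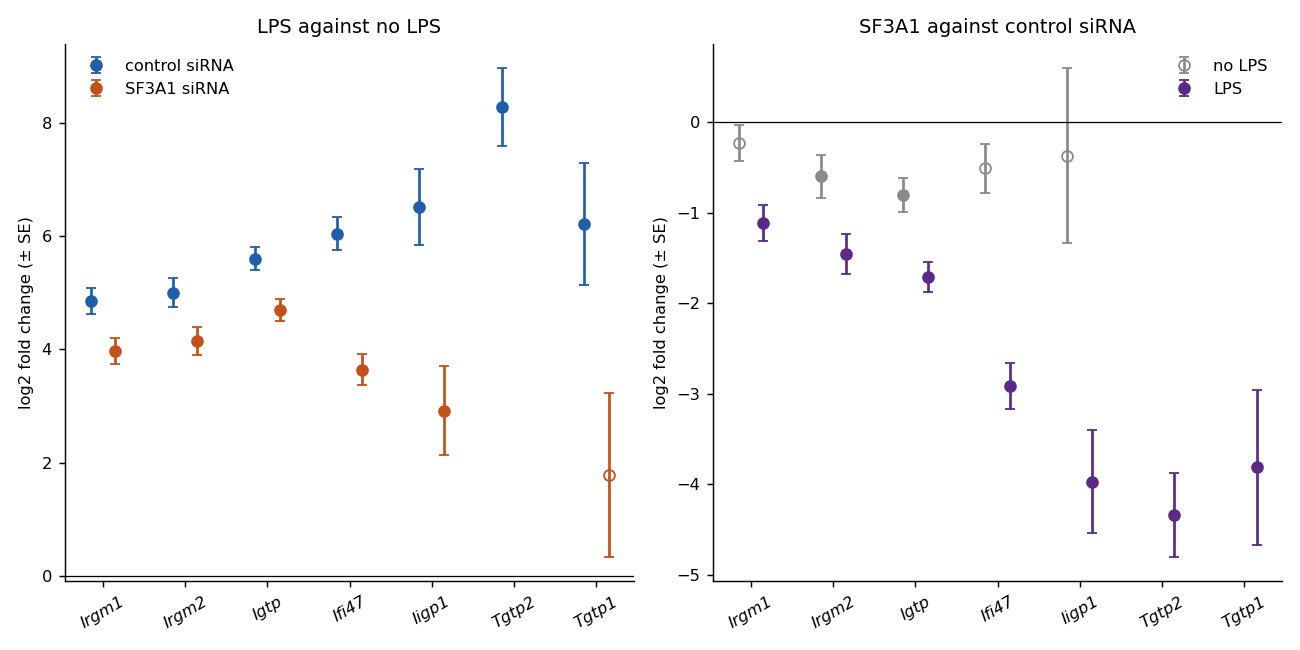
Log2 fold changes of the 7 IRG genes from edgeR (points, with bars of 1 standard error), on the left for LPS against no LPS under each siRNA and on the right for SF3A1 against control siRNA without and with LPS; filled points were called at an adjusted p of 0.1 or less. With LPS the effect of SF3A1 siRNA runs from -1.12 for Irgm1 to -4.34 for Tgtp2, and estimates that rest on a group without counts, or on 3 counts or fewer in both groups, are left out.

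The difference between the effects of SF3A1 siRNA with and without LPS was tested as an interaction. Ifi47 was lowered more with LPS than without it, the difference being -2.40 on the log2 scale (SE 0.361, edgeR adjusted p = 0.00632), and so was Igtp, with a difference of -0.90 (SE 0.249, edgeR adjusted p = 0.0951). The call for Igtp was lost without any 1 of 9 libraries (edgeR adjusted p from 0.131 to 0.195). The differences for Irgm1 (-0.89, SE 0.282, edgeR adjusted p = 0.149), Irgm2 (-0.86, SE 0.321, adjusted p = 0.242) and Iigp1 (-3.59, SE 1.20, adjusted p = 0.174) were not called. When same-numbered replicates were blocked, Irgm1 (adjusted p = 0.0195) and Irgm2 (adjusted p = 0.0329) were called in edgeR too, so that 4 of 7 members were called in place of 2. Irgm1 was also called with no filter on low counts (log2 -0.86, edgeR adjusted p = 0.0747) and in DESeq2 (log2 -0.94, adjusted p = 0.044). So was Iigp1 with no filter (log2 -3.55, edgeR adjusted p = 0.00533) and in DESeq2 (log2 -3.67, adjusted p = 0.00634), and without replicate 2 of SF3A1 siRNA alone its difference shrank to -1.49 (edgeR adjusted p = 0.947). For Tgtp1 and Tgtp2 the counts without LPS are too low to measure this difference, although limma-voom called Tgtp2 (log2 -4.30, adjusted p = 0.0325, against 0.971 in edgeR). The 2 members called lower stand beside 1.94% of all genes tested, and 0 were called higher, beside 1.54%.

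Within a library, the ratio of 2 genes does not depend on the scaling of libraries. For every 100 Irgm1 counts there were 26.0, 31.2 and 35.0 Ifi47 counts with control siRNA and LPS, and 8.61, 8.88 and 8.79 with SF3A1 siRNA and LPS. The 2 groups were thus well apart, while without LPS they overlapped, at 13.9 ± 2.94 and 11.1 ± 4.60 (SD, n = 3). Igtp showed a smaller shift, from 36.8 ± 6.43 to 23.9 ± 2.97 with LPS and from 22.0 ± 3.63 to 14.5 ± 2.02 without it, with no overlap in either case. For Irgm2 the groups overlapped with LPS, at 28.95 ± 1.35 and 22.7 ± 5.28, and were apart without it, at 26.2 ± 2.07 and 20.2 ± 1.81. The exact two-sided permutation test, whose smallest p here is 0.1 with 3 libraries a group, gave 0.1 with LPS for Ifi47 and Igtp and 0.2 for Irgm2. Without LPS it gave 0.1 for Igtp and Irgm2 and 0.4 for Ifi47. These 4 values at 0.1 are the smallest it can give, and none can pass 0.05.

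**Figure D3:**
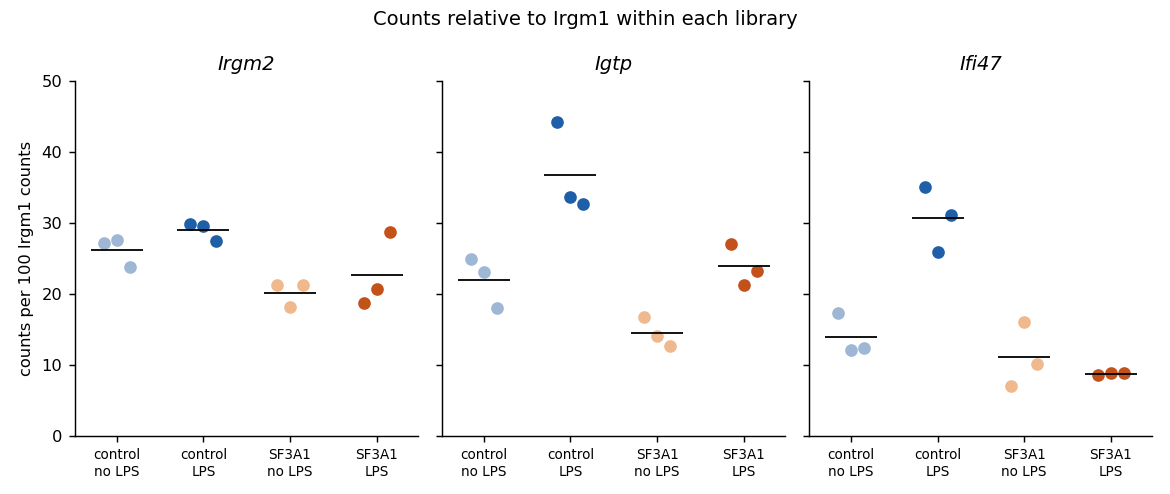
Counts of Irgm2, Igtp and Ifi47 per 100 Irgm1 counts in the same library, with a point per library and a line at the mean of the 4 groups. Ifi47 stands at 26.0 to 35.0 with control siRNA and LPS and at 8.61 to 8.88 with SF3A1 siRNA and LPS.

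Seen as a share of the counts of all 7 genes, the effectors made up 16.6 ± 1.52% with control siRNA and LPS (SD, n = 3) and 5.83 ± 0.167% with SF3A1 siRNA and LPS. Without LPS they made up 8.89 ± 1.77% and 7.95 ± 3.35%. Ifi47 alone made up 15.4 ± 1.62% and 5.63 ± 0.224% with LPS. The family as a whole rose from 51.3 ± 12.4 to 1816 ± 308 CPM with control siRNA and from 39.55 ± 2.94 to 660 ± 29.7 CPM with SF3A1 siRNA.

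Levels of different genes were compared per kilobase of all annotated exons. With control siRNA and LPS, Igtp came first at 164 ± 13.2 CPM per kb, followed by Irgm1 at 158 ± 32.6 and Ifi47 at 113 ± 22.9. The ranges of Igtp and Irgm1 overlapped, and so did those of Irgm1 and Ifi47. Irgm2 followed at 71.7 ± 11.75, and then, far below, Iigp1 at 2.58 ± 1.12, Tgtp2 at 1.77 ± 0.203 and Tgtp1 at 0.626 ± 0.351 CPM per kb, where the ranges of Iigp1 and Tgtp2 overlapped. With SF3A1 siRNA and LPS the order was Irgm1 (72.9 ± 1.04), Igtp (49.98 ± 5.83), Irgm2 (26.1 ± 6.47) and Ifi47 (15.0 ± 0.397 CPM per kb), and no neighbours among these 4 overlapped. Ifi47 thus stood above Irgm2 under control siRNA and below it under SF3A1 siRNA. Without LPS the order of the first 4 was Irgm1, Igtp, Irgm2 and Ifi47 under both siRNAs, with every neighbour overlapping under control siRNA and Irgm2 and Ifi47 overlapping under SF3A1 siRNA. The order depends on the length used. Per kilobase of the longest transcript, a length chosen after seeing the data, Irgm1 came first with control siRNA and LPS at 239.8 ± 49.4 CPM per kb, above every value of Igtp, which stayed at 164 ± 13.2 and overlapped Ifi47 at 158 ± 32.0. On that length Ifi47 still stood above Irgm2 with control siRNA and LPS (75.0 ± 12.3) and below it with SF3A1 siRNA and LPS (20.9 ± 0.554 against 27.3 ± 6.77), and without LPS their ranges overlapped under both siRNAs. Reads shared by Tgtp1 and Tgtp2 were not counted, and their part in these low values was not tested.

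Because SF3A1 acts in splicing, the use of exons within each gene was examined. Exons are cut into bins at every annotated boundary, and the test asks whether a bin shifts relative to the rest of its gene. Bin counts of 11 libraries were used. For control siRNA with LPS they cover replicates 1 and 2, and replicate 3 was not used here for exons. Igtp and Irgm2 form a single unit there, as do Ifi47 with Olfr56 and Tgtp1 with Gm12185, so that bins of these units are uncertain. Of 26 bins of the members that were tested, 0 were called by edgeR's diffSpliceDGE in any of the 4 comparisons. The background was 0.0801% of bins for LPS with control siRNA, 0.0254% for LPS with SF3A1 siRNA, 0.626% for the siRNA comparison without LPS and 0.492% for that with LPS. At an unadjusted p under 0.05 there were 1, 1, 0 and 3 of the 26 bins in the same order, beside 3025, 1984, 5206 and 6134 of all 153624 bins tested. limma's diffSplice also called 0, with 1, 0, 0 and 3 bins at an unadjusted p under 0.05.

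Bins 4 and 6 of Irgm1 had the smallest adjusted p under the block. With LPS, bin 4 took 11.05% and 9.59% of Irgm1 bin counts in the 2 control libraries, and 6.26%, 5.93% and 6.38% with SF3A1 siRNA. Without LPS its share was 10.9%, 9.26% and 11.4% with control siRNA and 6.74%, 8.24% and 6.73% with SF3A1 siRNA. Every SF3A1 siRNA library was below every control library in both conditions, as was so for 10.4% of all bins tested with LPS and 5.17% without it. The relative log2 change with LPS was -0.50 for bin 4, not called without a block (edgeR adjusted p = 1) and called when same-numbered replicates were blocked (log2 -0.52, edgeR adjusted p = 0.0438). Bin 6 of Irgm1, a minor bin with 8 to 109 counts per library with LPS, was called under the block as well (log2 1.13, edgeR adjusted p = 0.0659, against 0.88 and 0.810 without it), although its shares overlapped between groups.

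The annotation used for the bin counts was not used here, so the bins of Irgm1 are given by number and without a position. All tested bins of the other members had an adjusted p of 1 in edgeR without the block, and no bin of Iigp1 could be tested.

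**Figure D4:**
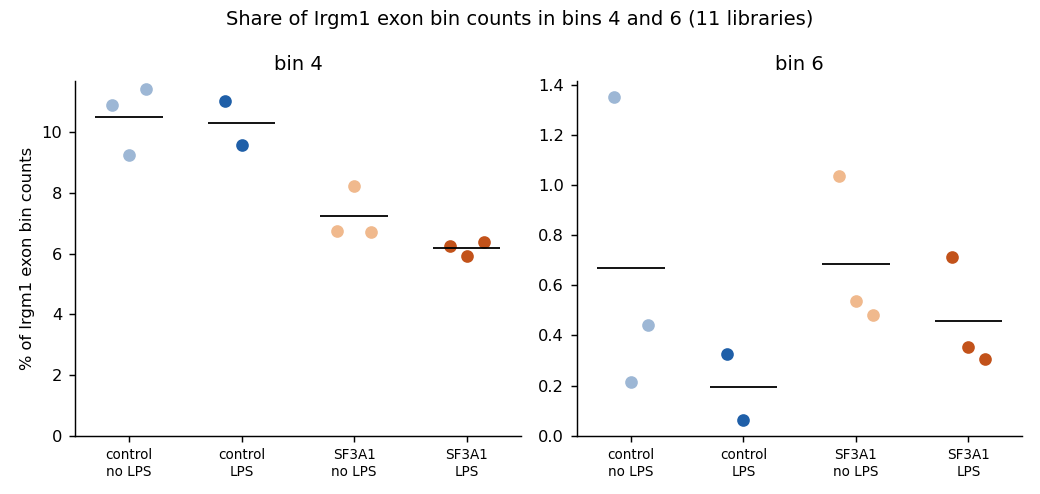
Share of all Irgm1 exon bin counts that fell in bin 4 (left) and bin 6 (right), in percent, with a point per library and a line at each mean, for 11 libraries. Bin 4 lies at 9.26 to 11.4% in the 5 control siRNA libraries and at 5.93 to 8.24% in the 6 SF3A1 siRNA libraries.

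Of 17 other IRG family symbols, 11 were in the table and 7 were tested. With control siRNA, LPS raised 6 of these 7 and lowered 0, beside 13.8% and 18.3% of all genes tested. Without LPS, Gm12250 and Gm4951 were above the low-count limit in no library and Gm12185 in 1. These genes entered the test through groups with LPS, so that a difference was built into their selection. The counts called and the median of this list are given for completeness and not as support. The log2 fold changes were 7.72 for Gm12250, 7.23 for Gm4951 and 4.56 for Gm5431 (edgeR adjusted p = 1.85e-07, 0.000141 and 3.67e-07). With SF3A1 siRNA those of Gm12250 and Gm5431 were 5.05 and 2.46 (edgeR adjusted p = 0.000126 and 0.000266). Without LPS, SF3A1 siRNA lowered 9930111J21Rik1 and 9930111J21Rik2 (log2 -2.45 and -2.48, edgeR adjusted p = 0.00285 and 0.0201). With LPS, SF3A1 siRNA lowered 6 and raised 1, beside 20.4% and 18.4% of all genes tested. The median log2 fold change was -3.62 against -0.04 for all genes. Gm12250 (Irgb10), a GKS effector that GENCODE vM21 annotates as a processed pseudogene, stood at 24.9 ± 2.95 CPM with control siRNA and LPS and at 1.87 ± 0.436 CPM with SF3A1 siRNA and LPS (SD, n = 3, log2 -3.73, SE 0.364, edgeR adjusted p = 2.91e-05). Gm4951 and 9930111J21Rik2 fell too, by -4.71 and -4.17 (edgeR adjusted p = 0.000873 and 0.000396), and Gm4951, like Tgtp1 and Tgtp2, had passed the filter only through control siRNA with LPS. The gene that rose was Irgq, a distant relative not known as an interferon target, and it rose without LPS as well (log2 0.80, edgeR adjusted p = 0.0127). It averaged 15.4 ± 4.37 and 24.7 ± 5.03 CPM with LPS (log2 0.68, SE 0.209, edgeR adjusted p = 0.0262), and it was not called for LPS with control siRNA (log2 -0.01, edgeR adjusted p = 0.986).

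The guanylate-binding proteins (GBPs) are interferon-inducible GTPases that act with the IRGs at the same vacuoles. All 7 that were tested rose with LPS under control siRNA, and all 7 were lower with SF3A1 siRNA and LPS, although 3 of them (Gbp2b, Gbp4 and Gbp8) were above the low-count limit in no library without LPS. Gbp2b averaged 189 ± 89.3 CPM with control siRNA and LPS and 14.7 ± 8.52 CPM with SF3A1 siRNA and LPS (SD, n = 3, log2 -3.69, edgeR adjusted p = 0.000137). Gbp2 averaged 200.3 ± 84.2 and 16.4 ± 5.23 CPM (log2 -3.61, edgeR adjusted p = 5.82e-05). The log2 rise with LPS under control siRNA was 10.61 for Gbp2b, 8.71 for Gbp3 and 8.57 for Gbp2 (edgeR adjusted p = 3.49e-07, 1.42e-07 and 1.7e-07). Under SF3A1 siRNA it was 7.35 for Gbp2b, 6.56 for Gbp2 and 5.39 for Gbp7 (edgeR adjusted p = 4.79e-05, 1.39e-05 and 5.67e-06). With SF3A1 siRNA and LPS, Gbp8 was lower as well (log2 -3.30, edgeR adjusted p = 0.015). Without LPS, 0 of the 7 GBPs were called for SF3A1 siRNA, beside 20.1% of all genes tested called lower and 13.7% higher. There Gbp2, Gbp2b, Gbp4, Gbp8 and Gbp9 were above the low-count limit in 0 libraries with SF3A1 siRNA and at most 1 with control siRNA. At such low counts this 0 does not show that their levels were unchanged. The median log2 fold change of the 7 was -0.46, against -0.02 for all genes.

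Upstream of the family, Ifnb1, which encodes interferon-β, had 2 counts in all with control siRNA alone and averaged 19.5 ± 12.6 CPM after LPS. With SF3A1 siRNA and LPS it averaged 3.10 ± 2.24 CPM (log2 -2.67, SE 0.736, edgeR adjusted p = 0.0186), and the groups overlapped. In order of replicate number, Ifnb1 stood with LPS at 4.92, 27.5 and 26.0 CPM under control siRNA and at 0.636, 5.02 and 3.66 CPM under SF3A1 siRNA. Ifng, which encodes interferon-γ, had 1 count in each group. Of 5 interferon and receptor genes tested, SF3A1 siRNA with LPS raised 2, namely the interferon-γ receptor chains Ifngr1 (log2 1.02) and Ifngr2 (log2 0.78), and lowered Ifnb1 (edgeR adjusted p = 0.000662, 0.000856 and 0.0186). In that comparison 18.4% of all genes tested were raised and 20.4% lowered. LPS with control siRNA lowered Ifngr1 (log2 -0.95, edgeR adjusted p = 0.000912) and raised Ifngr2 (log2 0.61, edgeR adjusted p = 0.00409), and with SF3A1 siRNA it raised Ifngr2 (log2 0.44, edgeR adjusted p = 0.066). Without LPS, SF3A1 siRNA raised Ifngr2 (log2 0.94) and lowered the type I receptor chain Ifnar2 (log2 -0.32), with edgeR adjusted p = 0.0003 and 0.0808.

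Of 16 genes of JAK-STAT and IRF signalling, LPS with control siRNA raised 13 and lowered 1, beside 13.8% and 18.3% of all genes tested. SF3A1 siRNA with LPS lowered 12 and raised 1, beside 20.4% and 18.4%. Irf1, a transcription factor of interferon responses, averaged 208 ± 88.9 CPM with control siRNA and LPS and 39.0 ± 7.66 CPM with SF3A1 siRNA and LPS (SD, n = 3, log2 -2.42, SE 0.326, edgeR adjusted p = 0.000189), and Irf7 (log2 -2.44) and Irf8 (log2 -2.26) fell as well (edgeR adjusted p = 0.00114 and 0.000309). Without LPS, 8 of the 16 were lowered, beside 20.1% of all genes tested, among them Irf8 (log2 -1.39, edgeR adjusted p = 0.00649). Ticam2, the TLR4 adaptor TRAM, and the kinase Tyk2 were lowered there too (log2 -1.37 and -0.86, edgeR adjusted p = 0.00024 and 0.0432). The largest rises with LPS were those of Irf7, Ikbke and Stat2, at 5.41, 4.48 and 3.90 on the log2 scale with control siRNA (edgeR adjusted p = 5.1e-06, 2.01e-07 and 1.12e-08) and at 3.11, 3.25 and 2.50 with SF3A1 siRNA (edgeR adjusted p = 0.000713, 8.6e-06 and 9.25e-07).

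Of 9 inhibitors of interferon signalling, 4 fell and 1 rose with SF3A1 siRNA and LPS, beside 20.4% and 18.4% of all genes tested. Usp18, which blocks the type I receptor, fell by 2.06 on the log2 scale (edgeR adjusted p = 0.00239). Socs3, a feedback inhibitor of cytokine receptors, was lower with SF3A1 siRNA and LPS (log2 -1.02, edgeR adjusted p = 0.00375) and higher with SF3A1 siRNA alone (log2 0.71, edgeR adjusted p = 0.0323). Usp18, Socs3 and Socs1 had the largest rises with LPS among the inhibitors, at 6.27, 5.65 and 5.21 with control siRNA (edgeR adjusted p = 1.49e-06, 2.41e-08 and 5.17e-06) and at 4.98, 3.91 and 3.57 with SF3A1 siRNA (edgeR adjusted p = 2.25e-05, 9.25e-07 and 0.000251). The phosphatase gene Ptpn1 was higher with SF3A1 siRNA without LPS (log2 0.85, edgeR adjusted p = 0.0175). The phosphatase gene Ptpn6 was lower in both conditions (log2 -0.91 with LPS and -0.88 without it, edgeR adjusted p = 0.0216 and 0.0283).

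The difference between the SF3A1 siRNA effects with and without LPS was called negative for 1 of the 7 other IRG family genes, 5 of the 16 signalling genes, 1 of the 9 inhibitors and 2 of the 7 GBPs, and positive for 1 signalling gene. Among all genes tested, 1.94% were called negative and 1.54% positive. Gm5431, another IRG family gene, had a difference of -2.11 on the log2 scale (edgeR adjusted p = 0.0273), and Gbp3 and Gbp7 had -3.43 and -2.29 (edgeR adjusted p = 0.0232 and 0.0827). Among the signalling genes it was -2.30 for Irf7, -1.94 for Irf1 and -1.50 for Stat3 (edgeR adjusted p = 0.0743, 0.046 and 0.029), and Socs3 had -1.74 (edgeR adjusted p = 0.0163).

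The ATG8 conjugation machinery is known to be needed for GKS loading. Of 20 genes tested of this machinery and of related autophagy factors, SF3A1 siRNA with LPS raised 9 and lowered 4. Beside them, 18.4% of all genes tested were raised and 20.4% lowered, so the share lowered was near that of all genes. Sqstm1, an autophagy receptor, averaged 989 ± 384 CPM with control siRNA and 2857 ± 219 CPM with SF3A1 siRNA (log2 1.53, edgeR adjusted p = 0.000295). Atg3, the conjugating enzyme of ATG8 proteins, fell with LPS (log2 -1.31, edgeR adjusted p = 0.00273) and without it (log2 -1.29, edgeR adjusted p = 0.00341). Becn1, a core autophagy gene, was lower with SF3A1 siRNA without LPS (log2 -1.13, edgeR adjusted p = 7.69e-05) and with it (log2 -1.17, edgeR adjusted p = 4.87e-05), and Sqstm1 was higher without LPS too (log2 1.32, edgeR adjusted p = 0.00088). Trim21, a ubiquitin ligase and antibody receptor, rose with LPS under control siRNA (log2 3.85, edgeR adjusted p = 2.16e-07) and was lower with SF3A1 siRNA and LPS (log2 -1.26, edgeR adjusted p = 0.00106). With LPS, Sqstm1 rose (log2 1.38 and 1.59 under control and SF3A1 siRNA) and Calcoco1 fell (log2 -0.86 and -0.78), with edgeR adjusted p = 0.000465, 0.000512, 0.0109 and 0.047, and under SF3A1 siRNA Trim21 rose by 2.82 (edgeR adjusted p = 9.43e-06).

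**Figure D5:**
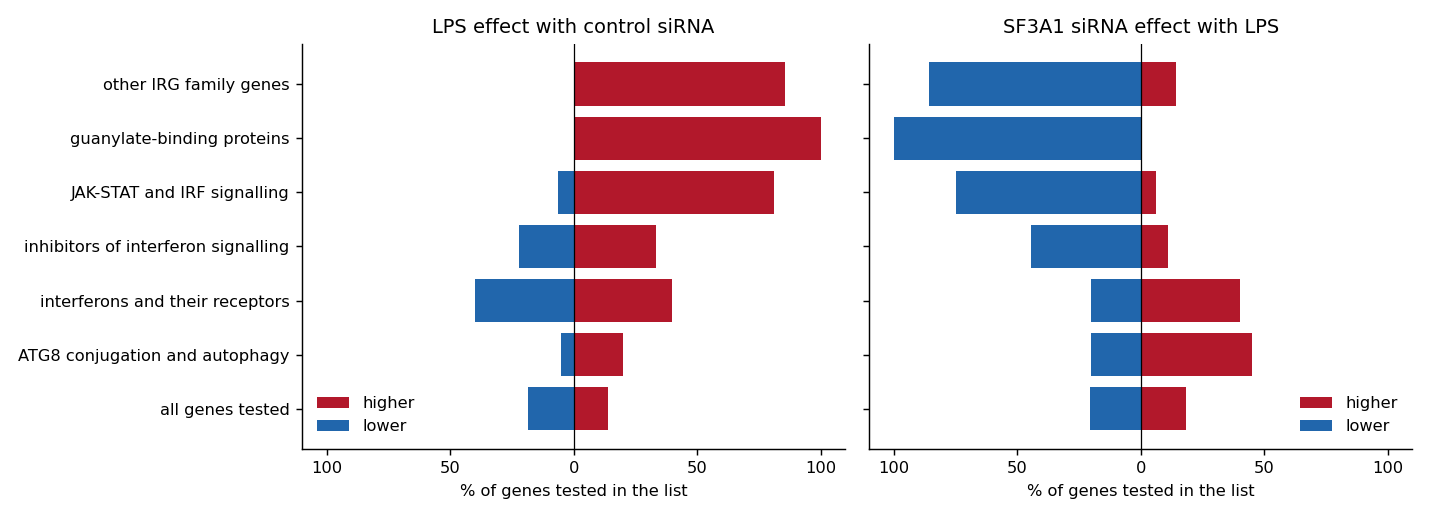
Share of the tested genes of each list that were called higher (right of 0) or lower (left of 0) at an edgeR adjusted p of 0.1 or less, for LPS with control siRNA and for SF3A1 siRNA with LPS, beside all genes tested at the foot. For SF3A1 siRNA with LPS, all 7 GBPs were called lower, and 18.4% and 20.4% of all genes were called higher and lower. Gbp4, Gbp8, Gm4951 and Gm12185 entered the test through control siRNA with LPS, and Gbp2b and Gm12250 through the groups with LPS.

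The family's own pattern was taken as the mean of the centred log2 CPM of its members over the 12 libraries, with Tgtp1 and Tgtp2 summed. Among 10617 other genes with at least 5 CPM on average, those with the highest Pearson correlation to it were Parp14 (0.994), Casp4 (0.994), Parp9 (0.994), Gbp7 (0.993), Slfn8 (0.993), Fgr (0.993), Mndal (0.992), Rnf114 (0.992), Gm12250 (0.992) and Trim30a (0.992). These are descriptions over 12 libraries that fall in 4 groups, 2 of them with LPS, and they carry no test. Parp14, an ADP-ribosyltransferase, averaged 23.5 and 931 CPM without and with LPS under control siRNA, and 19.3 and 242 CPM under SF3A1 siRNA. Rnf114, a ubiquitin ligase, had the smallest ratio between its highest and lowest group mean of the 10, at 88.7 and 303 CPM against 74.2 and 185 CPM.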

How the data were processed

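RNA of 12 cultures was measured by polyA RNAseq on the Ion Proton, with single-end reads. The authors dropped reads under 30 nt, aligned the rest to mm10 with GSNAP and used those with a unique position. The deposited counts per gene (htseq-count, intersection-nonempty mode, HTSeq 0.5.4p per the submitters' notes) and the deposited counts per exon bin (DEXSeq's script) use an Ensembl annotation and are not normalized. Whether counting used the strand is not given in the sources used here. Between 17.75 and 27.2% of reads overlapped no counted feature, a class that can hold reads in introns. Without LPS this share was 20.8 to 27.2% with SF3A1 siRNA and 17.8 to 19.6% with control siRNA. With LPS it was 18.2 to 21.4% and 17.8 to 19.8%, and the cause was not tested. A further 0.431 to 0.53% were ambiguous between genes, and both classes stayed out of library sizes.

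Samples were grouped by their labels. All 12 libraries were fitted together with edgeR 4.0.16 in R 4.3.3 (quasi-likelihood test, TMM scaling, filterByExpr with at least 10 counts), and p-values were adjusted by Benjamini-Hochberg over the 14983 genes tested. Calls are made at 0.1, the rate that the authors used. Bins were tested with diffSpliceDGE over 153624 bins. CPM uses the TMM library sizes. Gene positions and exon lengths are from GENCODE vM21 (mm10), symbols were matched for 36345 of 38215 IDs, and promoters are from RefSeq (GRCm38.p6). Alternatives used limma 3.58.1, DESeq2 1.42.0, other scaling, no filter, the replicate block, fewer groups and leaving out libraries. The tests were also checked on simulated data.

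Samples with the same replicate number deviated together from their group means (r from 0.143 to 0.600 in 18 of 18 pairs, median 0.356), and replicates 1 were sequenced in 2 runs. The numbers were therefore taken to pair the samples in the alternative fits with a replicate block. The main fits did not use this pairing, nor did the statements on whether groups overlap. The labels do not say that the numbers mark a shared day.

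The members, lists and motifs were chosen with earlier results of these data known. All 7 members are named, as are, in each comparison, up to 3 called genes of each list with the largest change, Gm12250, Ifnb1, Ifng and Irf1, and the 10 genes most like the family. Marker lists are given by their sums, and the macrophage list also by counts called. Irgq, Fcgr1, Mertk, Lyz2, Ncr1, Klrb1c and Rnf114 were singled out after their values were seen. The values of 1 signalling gene that the rule names are not reported here.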

Additional observations from a re-analysis of the deposited data

Results flagged for a closer look

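Ifi47 and Igtp stood out because the effect of SF3A1 siRNA differed between the cells with and without LPS, by the interaction test of edgeR. The difference was -2.40 on the log2 scale for Ifi47 (adjusted p = 0.00632) and -0.90 for Igtp (adjusted p = 0.0951). Irgm1 and Irgm2 had differences close in size to that of Igtp, and they were not called in the main fit. The difference for Ifi47 was called in every alternative. That for Igtp was lost in limma-voom (adjusted p = 0.121) and without any 1 of 9 libraries, with adjusted p between 0.131 and 0.195.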

How the results depend on the processing

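The replicate block moved the genes called for LPS with SF3A1 siRNA from 1598 to 3115 and for the interaction from 520 to 1756, and the exon bins called from 123 to 285, 39 to 105, 961 to 2113 and 756 to 1793 in the order LPS with control siRNA, LPS with SF3A1 siRNA, SF3A1 siRNA without LPS and with LPS. Under the block 2 member bins were called with SF3A1 siRNA and LPS in place of 0, 4 members in the interaction in place of 2, and Ifi47 in SF3A1 siRNA without LPS, and it changed no other member's call. The interaction called 930 genes with no filter and 966 in DESeq2, with 4 members each, and limma's diffSplice called 21 bins for LPS with SF3A1 siRNA. Without LPS, 1 member was called for SF3A1 siRNA, in place of 2, with DESeq2's scaling, in DESeq2, in limma-voom and with only the groups compared. The cause of these moves was not tested.

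Leaving out 1 library at a time gave 7 members called for LPS with control siRNA and for SF3A1 siRNA with LPS, 5 to 6 for LPS with SF3A1 siRNA, 1 to 2 for SF3A1 siRNA without LPS and 1 to 3 in the interaction, where Irgm1 was called without replicate 1 of control siRNA with LPS (log2 -1.03, edgeR adjusted p = 0.0678). Genes called ran from 1050 to 1509 for LPS with SF3A1 siRNA and from 273 to 711 in the interaction. Bins called ran from 49 to 113 for LPS with control siRNA, from 527 to 740 for SF3A1 siRNA without LPS and from 101 to 887 with LPS, the 49 and the 101 being without replicate 1 of control siRNA with LPS, the deeper of 2. That leaves 1 library in the group, which is assumed to vary like the other groups. Without LPS, the log2 fold change for SF3A1 siRNA ran from -0.33 to 0.01 for Irgm1, with the positive value without replicate 2 of control siRNA. For Iigp1 it ran from -2.47 to 0.54, with 0.54 without replicate 1 of control siRNA, and 0.22 and 0.04 without replicates 1 and 3 of SF3A1 siRNA. Depth limits Iigp1, Tgtp1 and Tgtp2 without LPS, where at most 11 counts were found in a library.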
